A study of Mus musculus with 69 samples.

Results

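The comparison described here sets 7 hippocampi of Cdh13 knockout mice against 7 of wildtype mice, all control-reared males killed at postnatal day 66 (P66), the adult age of the study. These 14 libraries carry names that begin with Ctr_ko_P66 or Ctr_wt_P66, out of 69 libraries in all. Breeding was done in 2 rounds, called cohorts, and each genotype has 3 animals of cohort 1 and 4 of cohort 2. Control litters were handled and otherwise stayed with the dam, and pups were weaned on day 22. Further sets of animals serve below only as other mice in which the same genotype difference could be read. They are 7 knockout and 10 wildtype P66 mice from litters taken from the dam for 3 h a day on days 1 to 14, and 9 knockout and 8 wildtype control-reared mice killed at day 22 (P22). Each library is 1 animal. The labels name neither the strain, the kind of knockout allele, the litters nor the hour of killing, so littermates could not be modelled and p-values measure the spread between these animals only.

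Cdh13 encodes T-cadherin, a cadherin that lacks the usual transmembrane and cytoplasmic parts and is held on the cell surface by a lipid anchor. It binds other T-cadherin molecules, lipoproteins and the adipocyte hormone adiponectin. In the hippocampus it is known from inhibitory interneurons and their GABA synapses, and the human gene has been linked to attention deficit disorder. Cdh13 itself was not analysed here, which leaves the genotype labels without a check by its level.

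The 14 libraries held between 11283370 and 15146787 counts over the 9930 analysed genes, which lie on chromosomes 1 to 8. Of these, 9741 lie on chromosomes 1 to 7, and chromosome 8 is covered only in part. Gene numbers below therefore refer to this part of the genome, and many gene lists are incomplete. For example, 16 of 45 listed chaperones and folding enzymes of the endoplasmic reticulum and 12 of 28 circadian clock genes were held. Levels are given as CPM, counts of the 9930 genes scaled to the same total in every library. Markers of dentate gyrus and CA fields were present in every animal, and their summed level ran from 5352 to 6124 CPM in wildtype and from 5401 to 6146 CPM in knockout hippocampi. Each of the 42 pairs of animals within a group differed by more than counting error, so no library was counted as a copy of another. The knockout animal C2-42 (cohort 2, number 42) stood apart on the first principal component, at a score of 20.8 against -12.4 to 10.1 in the other 13.

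No gene passed the test. The edgeR quasi-likelihood test with Benjamini-Hochberg adjustment called 0 of 7001 tested genes (0%) at an adjusted p under 0.05, and the smallest adjusted p was 0.200. At an unadjusted p under 0.05 there were 269 genes, against 350 that would be found on average with no difference at all. Of these, 115 (1.64%) were higher and 154 (2.2%) were lower in knockout. DESeq2 called 4 genes (Ciart higher, and Hsph1, Acot11 and Lcn2 lower) and limma-voom called none. Over all tested genes 50.5% of differences were above 0 and 49.5% below, with a median of 0.00089 on the log2 scale. The values below are therefore descriptions of single genes and lists without an adjusted call behind them, unless a sentence says otherwise. In bulk tissue, fewer cells of a type and less RNA per cell cannot be told apart.

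The differences that these animals leave possible are small for most genes. The median standard error (SE) of a knockout minus wildtype difference was 0.075 on the log2 scale, with quartiles of 0.053 and 0.13. The 95% interval lay within 1.2-fold in either direction for 4485 genes (64.1%), within 1.5-fold for 6276 (89.6%) and within 2-fold for 6829 (97.5%).

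Protein folding and the circadian clock are described first, without a test of either group as a whole. Among all 7001 genes ordered by p, the chaperone genes Hsph1, Pdia3 and Hspa5, lower in knockout, had ranks 1, 7 and 25. The clock genes Ciart, Dbp and Per3, higher in knockout, had ranks 3, 22 and 85. Chaperones hold unfolded proteins and help them reach their shape. Those of the endoplasmic reticulum (ER) are induced through ER stress elements when unfolded proteins pile up there, and those of the cytosol through heat-shock elements. The clock is a loop in which CLOCK and BMAL1 (the product of Arntl) bind E-boxes to switch on their own inhibitors, the Per and Cry genes, and output genes such as Dbp, whose protein in turn binds D-boxes. The 250 bases before the start site of 4 of these genes are printed to show where such elements lie (RefSeq, GRCm38.p6, 5′ to 3′ on the strand of the gene, with the matched element in capitals).
Hsph1, chr5:149636316-149636565, minus strand: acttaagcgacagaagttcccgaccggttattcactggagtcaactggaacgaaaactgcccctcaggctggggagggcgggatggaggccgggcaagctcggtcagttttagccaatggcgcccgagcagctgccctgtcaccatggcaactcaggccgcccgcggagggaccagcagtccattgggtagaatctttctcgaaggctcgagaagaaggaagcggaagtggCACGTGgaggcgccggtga
Hspa5, chr2:34771840-34772089, plus strand: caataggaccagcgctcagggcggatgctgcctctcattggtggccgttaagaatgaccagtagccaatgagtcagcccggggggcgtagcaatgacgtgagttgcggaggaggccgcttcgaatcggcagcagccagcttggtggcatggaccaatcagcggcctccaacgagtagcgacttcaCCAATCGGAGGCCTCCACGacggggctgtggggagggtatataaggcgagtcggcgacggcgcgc
Ciart, chr3:95882229-95882478, minus strand: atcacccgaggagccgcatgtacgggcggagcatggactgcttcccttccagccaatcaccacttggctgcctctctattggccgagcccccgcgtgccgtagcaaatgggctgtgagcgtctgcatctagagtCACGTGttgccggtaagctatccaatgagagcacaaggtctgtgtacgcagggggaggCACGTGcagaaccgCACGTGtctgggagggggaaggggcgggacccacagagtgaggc
Per3, chr4:151044666-151044915, minus strand: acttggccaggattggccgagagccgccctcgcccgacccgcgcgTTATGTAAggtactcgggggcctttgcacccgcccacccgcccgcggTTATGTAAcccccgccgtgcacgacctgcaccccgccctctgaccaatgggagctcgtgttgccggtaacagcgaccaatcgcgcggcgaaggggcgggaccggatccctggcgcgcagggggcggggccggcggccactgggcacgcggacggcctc

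Both strands were searched over 300 bases, from 250 before to 50 after a start site, in all 32851 promoters of that length in the RefSeq table. The E-box CACGTG was found in 7.15% of them, the D-box TTATGTAA in 0.938%, and the ER stress element, CCAAT and CCACG with 9 bases between, in 0.119%. The heat-shock element, GAA, TTC and GAA with 2 bases between each, was found in 0.603%. Ciart held 3 E-boxes, at 116, 58 and 44 bases before its start site, and Per3 held 2 D-boxes, at 205 and 158 bases before. Hspa5 held 1 ER stress element, 65 bases before its start site. Hsph1 has 2 listed start sites, and the one printed has an E-box 19 bases before it and the heat-shock element TTCTGGAAAGTTC 15 bases after it. Of the 16 genes searched, 4 others held a match: Hspe1 and Hspd1 each 2 overlapping heat-shock elements, and Hspd1, Bhlhe41 and Garem2 each 1 E-box. The 2 heat-shock elements of Hspe1 and those of Hspd1 are the same bases, read on opposite strands of overlapping windows. None of these elements was found in the windows of Pdia3, Dbp, Pdia4, Mlec, Hspb1, Dnaja1, Arntl and Tas1r3. A match describes the letters only and was not read as a bound site.

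Hsph1 had the smallest p of all tested genes. It encodes HSP110, an exchange factor that helps HSP70 release its clients, and lies at chr5:149614287-149636376. Its level ran from 723 CPM through a median of 825 to 878 in wildtype and from 630 through 684 to 769 in knockout hippocampi. All 7 knockout animals lay below the wildtype median, but the groups overlapped, since 1 knockout animal exceeded the 2 lowest wildtype animals. The difference was -0.24 ± 0.052 (log2, SE), or 1.18-fold lower, with a 95% interval of -0.35 to -0.14 and an adjusted p of 0.200. It was -0.20 in cohort 1 alone and -0.27 in cohort 2 alone.

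ER chaperones and folding enzymes lay below 0 in 13 of 16 tested members. Their median difference was -0.061, beside 0.00089 over all tested genes, and 3 members were lower at an unadjusted p under 0.05 and none higher. Over all tested genes 2.2% were lower and 1.64% higher at that level, and 49.5% lay below 0. Hspa5 encodes BiP, the HSP70 of the ER and a usual readout of ER stress, and lies at chr2:34771970-34777547. It ran from 442 CPM through 512 to 683 in wildtype and from 337 through 401 to 472 in knockout. All 7 knockout animals were below the wildtype median, and the lowest wildtype animal alone fell among them. The difference was -0.36 ± 0.12 (unadjusted p = 0.0039). Pdia3 encodes ERp57, a disulfide isomerase of glycoproteins, and lies at chr2:121413775-121438687. It ran from 405 CPM through 437 to 489 in wildtype and from 319 through 368 to 423 in knockout, a difference of -0.23 ± 0.059 (adjusted p = 0.453). The highest knockout animal exceeded the 3 lowest wildtype animals. Mlec, a lectin that reads sugars on newly made proteins, differed by -0.13 ± 0.051. The disulfide isomerase gene Pdia4 (-0.15) and Uggt1 (-0.072), which encodes a folding sensor for glycoproteins, had intervals that included 0.

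The ER chaperone values were smaller in cohort 1. Hspa5 was -0.14 (unadjusted p = 0.227) in cohort 1 alone and -0.54 (adjusted p = 0.0488, edgeR) in cohort 2 alone. Pdia3 was -0.058 in cohort 1 and -0.36 (adjusted p = 0.0341) in cohort 2. The list median was -0.010 in cohort 1 and -0.075 in cohort 2. Whether the cohorts differ was not tested. Regulators of the unfolded protein response stood on both sides of 0, with 6 of 12 above and 6 below and a median of -0.00036. Among them Creb3l1, a transcription factor anchored in the ER membrane, was lower at an unadjusted p under 0.05 (-0.26 ± 0.11).

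**Figure D1:**
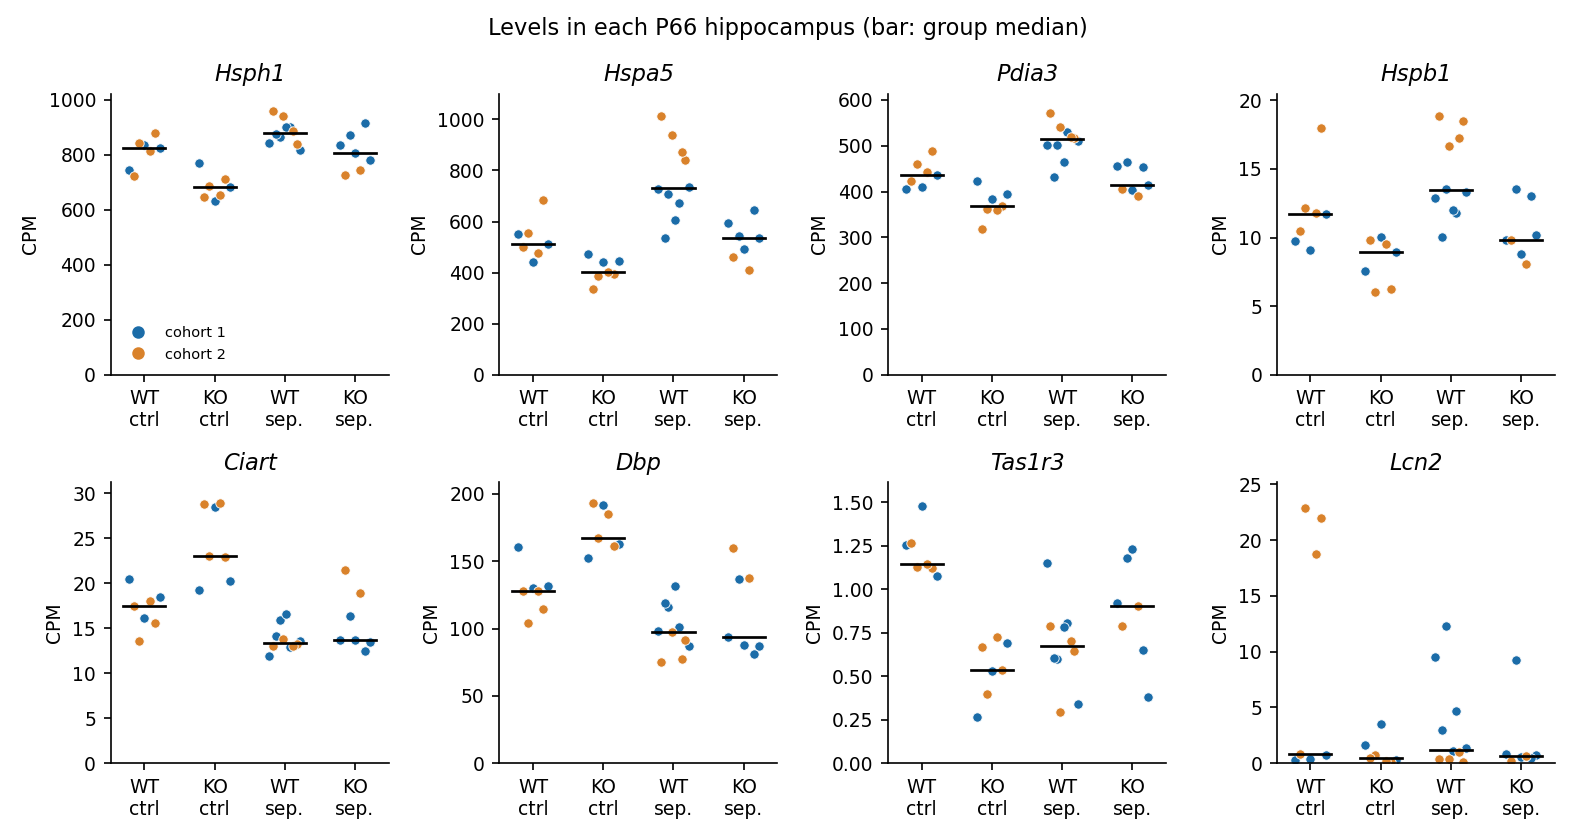
Levels (CPM, linear axes from 0) of 8 genes in every P66 hippocampus, in wildtype (WT) and knockout (KO) animals of control (ctrl) and separated (sep.) rearing; each point is 1 animal, coloured by cohort, and the bar is the group median. In control rearing all 7 KO points of Hsph1, Hspa5 and Pdia3 lie below the WT median and all 7 of Ciart and Dbp above it, while Lcn2 is high in 3 WT animals of cohort 2.

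Cytosolic and mitochondrial heat-shock proteins lay below 0 in 17 of 20 tested records, with a median of -0.073. Of all tested genes 49.5% lay below 0, and 2.2% were lower at an unadjusted p under 0.05. Besides Hsph1, the small heat-shock protein gene Hspb1 (HSP27) and Hspe1, which encodes the mitochondrial co-chaperonin, were lower at an unadjusted p under 0.05. Hspb1 ran from 9.12 CPM through 11.7 to 18.0 in wildtype and from 6.01 through 8.98 to 10.04 in knockout. The groups overlapped, although every knockout animal was below the wildtype median. Its difference was -0.50 ± 0.16 (unadjusted p = 0.0031), -0.20 in cohort 1 alone and -0.73 in cohort 2 alone. Hspe1 differed by -0.12 ± 0.052. Fkbp4 (-0.14), a partner of HSP90 at steroid receptors, Bag3 (-0.16), a co-chaperone of HSP70, the mitochondrial chaperonin gene Hspd1 (-0.073) and Dnaja1 (-0.073), an HSP40, had unadjusted p-values above 0.05. The single record that was higher at an unadjusted p under 0.05 was 1 of 2 named Hspa14 (0.11). The 2 records overlap, so the split of reads between them is uncertain.

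Circadian clock genes had the highest median of the 31 lists. Of 12 tested members 10 were above 0, the median was 0.13, and 4 were higher and 1 lower at an unadjusted p under 0.05. Among all tested genes 50.5% were above 0, and 1.64% were higher and 2.2% lower at that level. Ciart encodes CHRONO, a repressor of CLOCK and BMAL1, and lies at chr3:95878503-95882251. It ran from 13.6 CPM through 17.5 to 20.5 in wildtype and from 19.2 through 22.98 to 28.9 in knockout. Every knockout animal was above the wildtype median, and 2 of them lay within the wildtype range. The difference was 0.51 ± 0.11, or 1.43-fold higher, with an adjusted p of 0.200.

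Dbp encodes a D-box activator with a strong daily rhythm and lies at chr7:45705088-45710203. It ran from 104 CPM through 128 to 161 in wildtype and from 153 through 167 to 193 in knockout. The highest wildtype animal alone reached the knockout range. The difference was 0.44 ± 0.14 (unadjusted p = 0.0030). Per3 ran from 130 CPM through 138 to 172 in wildtype and from 149 through 159 to 182 in knockout (0.21 ± 0.082), with 1 wildtype animal among the knockout animals. The repressor gene Bhlhe41 differed by 0.20 ± 0.077, and Arntl, whose rhythm runs opposite to that of Dbp and the Per genes, by -0.12 ± 0.053. Per2 (0.12), Bhlhe40 (0.13) and Cry2 (0.069) were above 0 with intervals that included it. Both cohorts gave Ciart and Dbp the same sign. Ciart was 0.30 in cohort 1 alone and 0.68 in cohort 2 alone, and Dbp was 0.27 and 0.58, with an adjusted p of 0.0341 for each gene in cohort 2. In the fit of both cohorts the adjusted p of Dbp was 0.948.

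A fit with the clock level of each animal as a covariate gave values closer to 0 for chaperones and for other genes. The covariate was the mean log2 CPM of Dbp, Ciart and Per3 minus that of Arntl. These genes differ between the genotypes here, so the covariate carries part of the genotype difference itself, and a smaller value shows no link to the clock. With it the difference of Hsph1 was -0.11 (unadjusted p = 0.032), that of Hspa5 was -0.13 (unadjusted p = 0.301) and that of Pdia3 was -0.11 (unadjusted p = 0.096). The ER chaperone median was then -0.013 and the heat-shock median -0.015. Genes in none of these lists moved as well: Ccdc190 from -0.29 to -0.16, Cyp2j9 from -0.27 to -0.19, Acot11 from -0.32 to -0.24, Garem2 from 0.24 to 0.17 and Muc3a from 0.38 to 0.26, whereas Tas1r3 was -1.25. In separated animals edgeR called 2 genes with the same covariate, Hspa5 and Pdia3, and 0 without it. The part that the hour of killing has in these values was not tested.

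**Figure D2:**
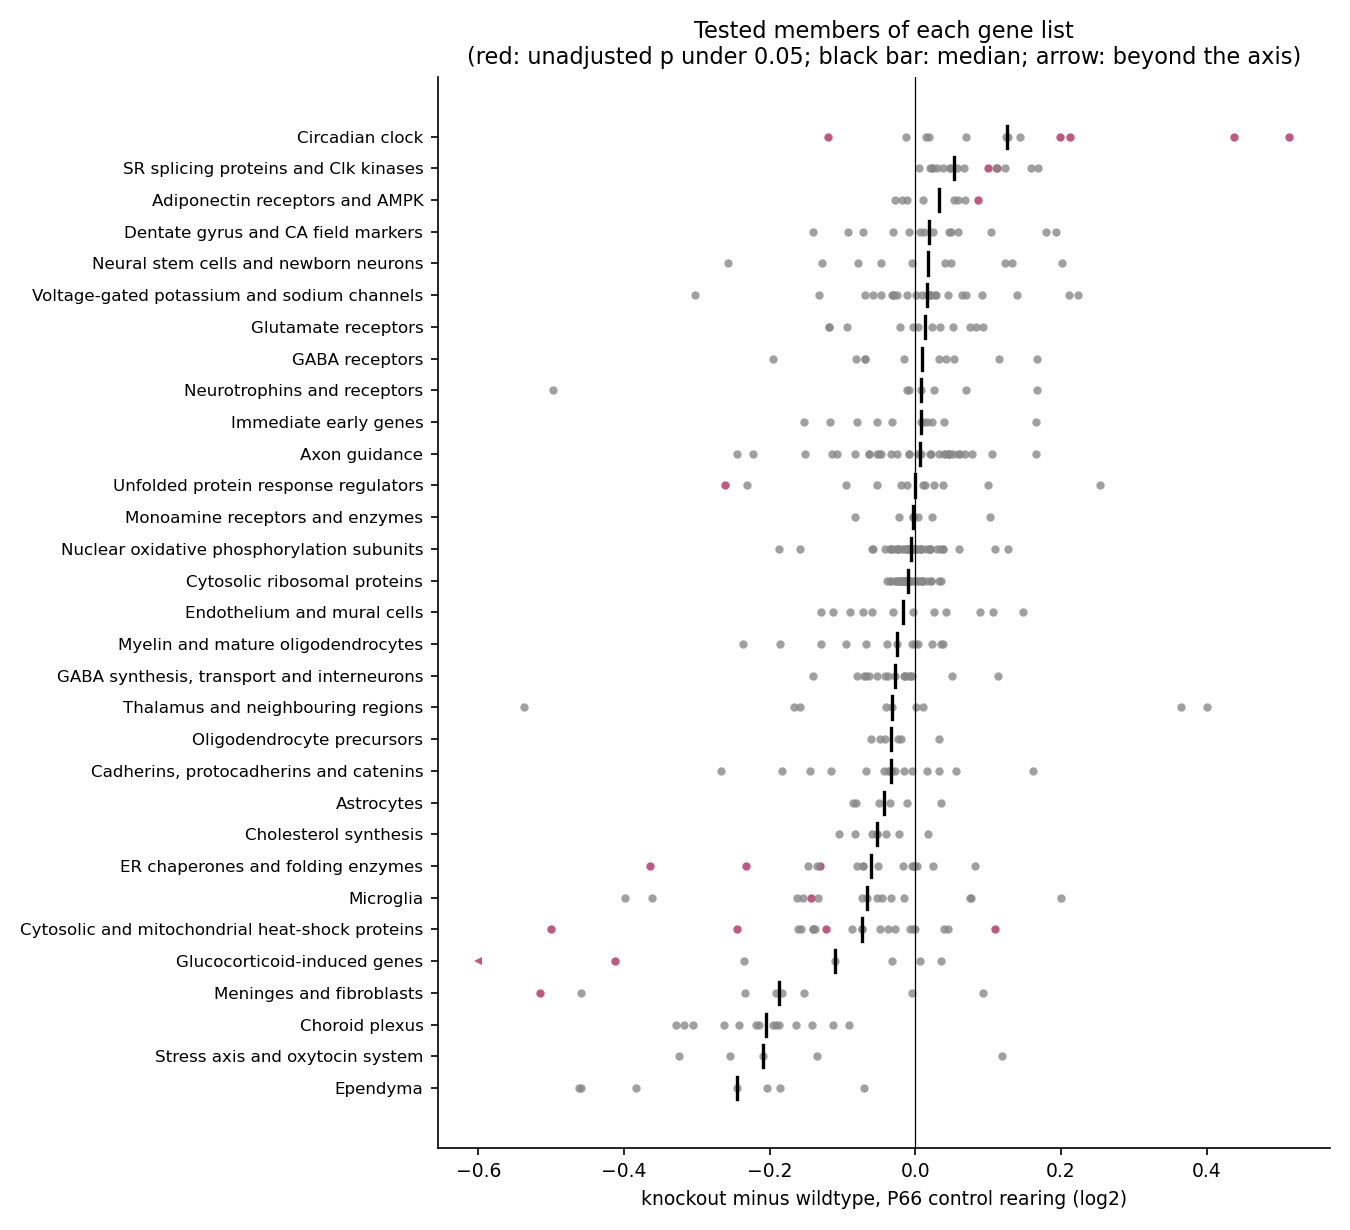
Knockout minus wildtype difference (log2, horizontal axis) of every tested member of 31 gene lists, sorted by median; points in red have an unadjusted p under 0.05, the black bar is the median of the list and the arrow marks Lcn2 beyond the axis. Clock genes have the highest median (0.13) and ependymal markers the lowest (-0.25), while ribosomal proteins lie close to 0.

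Tas1r3 was the single tested gene with every knockout animal below every wildtype animal (0.0143% of tested genes). It encodes a subunit of the sweet and umami taste receptors and lies at chr4:155859268-155863362. Its level was low, from 1.08 CPM through 1.15 to 1.48 in wildtype and from 0.267 through 0.537 to 0.728 in knockout. The difference was -1.13 ± 0.24 (adjusted p = 0.200), with -1.31 in cohort 1 alone and -0.999 in cohort 2 alone. In the other direction, 1 gene (0.0143%) had all knockout animals above all wildtype animals. This was Thsd1, which encodes a membrane protein with a thrombospondin repeat and is named here after its values were seen. It ran from 11.5 CPM through 13.2 to 14.01 in wildtype and from 14.1 through 14.4 to 15.4 in knockout (0.18 ± 0.071). Whether 1 such gene in each direction exceeds the number found with no genotype difference was not tested.

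The other genes with the smallest p among those lower in knockout had mixed functions. Acot11, a thioesterase that splits fatty acyl-CoA, ran from 90.4 CPM through 103 to 133 in wildtype and from 78.3 through 84.4 to 92.7 in knockout. Its difference was -0.32 ± 0.072 (adjusted p = 0.200), and 2 knockout animals exceeded the lowest wildtype animal. The cytochrome P450 gene Cyp2j9 differed by -0.27 ± 0.065 and Ccdc190 by -0.29 ± 0.071, with an adjusted p of 0.302 for each. Pycard, the adaptor of the inflammasome, ran from 5.94 CPM through 6.78 to 7.52 in wildtype and from 4.22 through 4.89 to 6.26 in knockout (-0.42 ± 0.11), and 1 knockout animal reached the wildtype range. Gimap9 (-1.12 ± 0.31), Mfsd7a (-0.55 ± 0.16) and Ccdc91 (-0.16 ± 0.042) completed this group. Gimap9, a GTPase gene of lymphocytes, had a median of 0.871 CPM in wildtype and 0.396 CPM in knockout, so it rests on few reads.

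Among genes higher in knockout, Garem2 followed Ciart. It encodes an adaptor between growth factor receptors and ERK signalling and ran from 33.8 CPM through 34.6 to 36.6 in wildtype and from 35.2 through 41.4 to 44.7 in knockout. A single knockout animal lay within the wildtype range (0.24 ± 0.064, adjusted p = 0.601). The mucin gene Muc3a was next (0.38 ± 0.10), with 14.2 to 22.2 CPM in wildtype and 19.4 to 27.1 CPM in knockout. Tmem265 (0.38 ± 0.11), Glt1d1 (0.16 ± 0.046), the splicing factor gene Prpf38a (0.15 ± 0.044), the mitochondrial copper protein gene Cox19 (0.15 ± 0.046), the ubiquitin ligase gene Chfr (0.11 ± 0.036) and Eef2k, which encodes the kinase that slows translation elongation (0.13 ± 0.043), came after it, along with Dbp. Eef2k was -0.019 in cohort 1 alone.

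**Figure D3:**
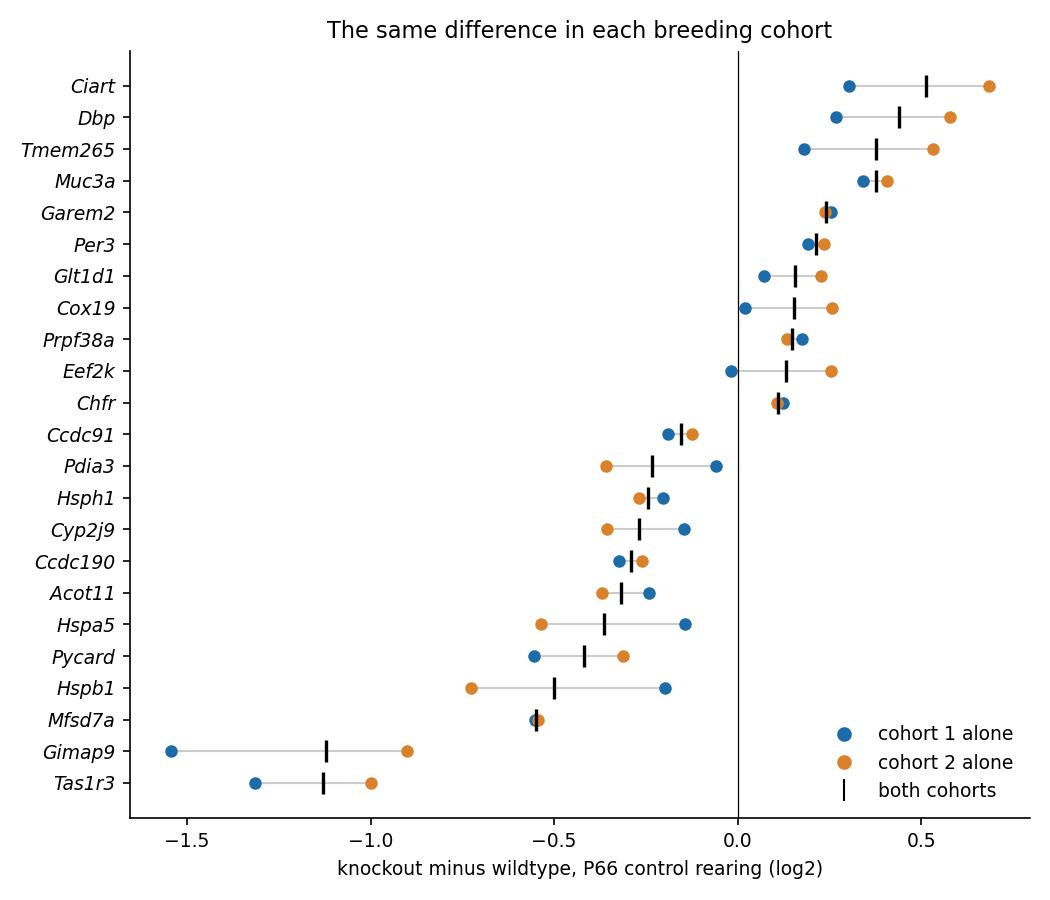
Knockout minus wildtype difference (log2, horizontal axis) of the 10 genes with the smallest p in each direction and of Hspa5, Hspb1 and Per3, in cohort 1 alone (3 against 3 animals, blue), cohort 2 alone (4 against 4, orange) and both (black tick). Hspa5 (-0.14 and -0.54), Pdia3 (-0.058 and -0.36) and Ciart (0.30 and 0.68) are farther from 0 in cohort 2, whereas Garem2 and Mfsd7a have nearly the same value in each.

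Lcn2 and Sult1a1 set a few wildtype animals apart. Lcn2 encodes lipocalin 2, a secreted acute-phase protein that is also induced by glucocorticoids. It was 18.8, 22.0 and 22.9 CPM in 3 of the 4 wildtype animals of cohort 2 and between 0.313 and 0.792 CPM in the other 4 wildtype animals. In knockout it ran from 0.0672 through 0.501 to 3.55 CPM. The fitted difference was -3.64 ± 1.09 (adjusted p = 0.755), but it was 1.93 in cohort 1 alone and -5.38 (adjusted p = 0.0341) in cohort 2 alone. Sult1a1, a sulfotransferase gene, was 20.4 to 22.9 CPM in the same 3 wildtype animals and 11.3 to 15.1 CPM in the other 4, against 11.3 to 14.04 CPM in knockout (-0.41 ± 0.13). These were the 2 members of the 7 tested glucocorticoid-induced genes with an unadjusted p under 0.05, beside 2.2% lower at that level among all tested genes. Of the 7 members 5 were below 0, with a median of -0.11. Of the stress axis, Oxtr, the oxytocin receptor gene (-0.21 ± 0.11), and Crh, which encodes corticotropin-releasing hormone (-0.25 ± 0.19), had unadjusted p-values above 0.05.

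Of 16 tested genes of other cadherins, protocadherins and catenins none had an unadjusted p under 0.05. Of them 12 were below and 4 above 0, with a median of -0.033. Cdh7, a classical cadherin, ran from 12.6 CPM through 16.7 to 22.2 in wildtype and from 7.52 through 14.1 to 20.5 in knockout (-0.27 ± 0.18). The groups overlapped over most of their range. Fat4, a giant cadherin of planar cell polarity, was at 0.16 ± 0.093, Cdh20 at -0.15 ± 0.10 and Pcdh10 at -0.12 ± 0.084. In cohort 1 alone Cdh7, Cdh20 and Pcdh10 had the opposite sign (0.12, 0.034 and 0.060). Genes of adiponectin receptors and AMPK, a pathway of a T-cadherin ligand, had a median of 0.032 in 8 tested members. Camkk2, which encodes a kinase that activates AMPK, was the single member at an unadjusted p under 0.05 (0.086 ± 0.042), and it was -0.035 in cohort 1 alone.

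Transmitter systems had medians near that of all genes, although 15 of 17 genes of GABA synthesis, transport and interneurons were below 0. The other 2 were above 0, and fits without 1 library had 2 to 10 of the 17 above 0. The median difference was 0.0089 for 10 GABA receptor genes, 0.013 for 12 glutamate receptor genes, -0.028 for 17 genes of GABA synthesis, transport and interneurons and -0.0028 for 7 monoamine genes, and none of these genes had an unadjusted p under 0.05. Among those with the smallest p were Gabbr2, a subunit gene of the metabotropic GABA receptor (-0.070 ± 0.038), Lhx6, a transcription factor of interneurons (-0.14 ± 0.080), and the metabotropic glutamate receptor gene Grm3 (-0.12 ± 0.064). Lhx6 was -0.056 without the wildtype animal C1-6, which had the highest level. Gabrd, which encodes the delta subunit of extrasynaptic GABA receptors, was at 0.17 ± 0.12. Axon guidance genes (32 tested, median 0.0060), immediate early genes (11 tested, 0.0073), neurotrophins and their receptors (7 tested, 0.0084) and voltage-gated channels (25 tested, 0.015) likewise held no gene at that level.

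Splicing regulators were all above 0. Over all tested genes 50.5% were above 0, and 1.64% were higher at an unadjusted p under 0.05. The 16 tested SR proteins, Clk kinases and related genes had a median of 0.053 and ran from 0.0050 to 0.17. Srsf9, an SR protein gene (0.10 ± 0.044), and the cyclin gene Ccnl2 (0.11 ± 0.053) were the 2 members at an unadjusted p under 0.05, and Clk1, which encodes a kinase of SR proteins, was at 0.17 ± 0.090. In cohort 1 alone 14 of the 16 were above 0, and in cohort 2 alone 9. Cholesterol synthesis genes were below 0 in 7 of 8, with a median of -0.053. Cytosolic ribosomal proteins (36 tested, median -0.010) and nuclear subunits of oxidative phosphorylation (42 tested, -0.0062) held none at an unadjusted p under 0.05.

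Markers of tissue that borders the hippocampus varied widely between animals, and the genotypes overlapped. All 14 choroid plexus markers were below 0 with a median of -0.21, but the median SE was 0.54 and none had an unadjusted p under 0.05. Their summed level ran from 289 CPM through 473 to 654 in wildtype and from 142 through 357 to 745 in knockout. The knockout range thus enclosed the wildtype range, and its lowest animal was C2-42, without which the list median was -0.036. Without the knockout animal C1-24 the list median was -0.44. The median was 0.24 in cohort 1 alone and -0.71 in cohort 2 alone. All 7 ependymal markers were below 0 as well, with a median of -0.25. It was -0.13 without C2-42 and -0.34 without C1-24. No marker of either list was without counts.

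Meningeal and fibroblast markers had a median of -0.19, with 7 of 8 below 0. Their summed level was 589 to 1912 CPM in wildtype and 545 to 1275 CPM in knockout, and the highest value was that of the wildtype animal C2-58. Slc6a13, a GABA and taurine transporter gene of the meninges, was lower at an unadjusted p under 0.05 (-0.52 ± 0.18), and it was -0.31 without that animal. Ptgds, the prostaglandin D synthase gene, was -0.46, and -0.18 without that animal. The same animal had the highest Hsph1, Hspa5, Pdia3 and Hspb1 of the 7 wildtype animals. Without it Hsph1 was -0.22, Hspa5 -0.30, Pdia3 -0.20 and Hspb1 -0.39. When summary scores for choroid plexus and for oligodendrocytes entered the fit, edgeR again called 0 genes, with 276 at an unadjusted p under 0.05.

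Glial and vascular markers lay closer to 0. Summed microglial markers ran from 802 to 914 CPM in wildtype and from 750 to 864 CPM in knockout, with 12 of 15 below 0 and a median of -0.067. Olfml3, a gene for a secreted protein of microglia, was lower at an unadjusted p under 0.05 (-0.14 ± 0.061), and C1qb, which encodes a chain of complement C1q, was at -0.15 ± 0.080. Medians were -0.025 for 13 markers of myelin and mature oligodendrocytes, -0.033 for 6 of their precursors and -0.042 for 6 of astrocytes. They were -0.017 for 12 markers of endothelium and mural cells, 0.018 for 14 of dentate gyrus and CA fields and -0.032 for 9 of thalamus and neighbouring regions. Genes of neural stem cells and newborn neurons had a median of 0.018 in 10 tested members.

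**Figure D4:**
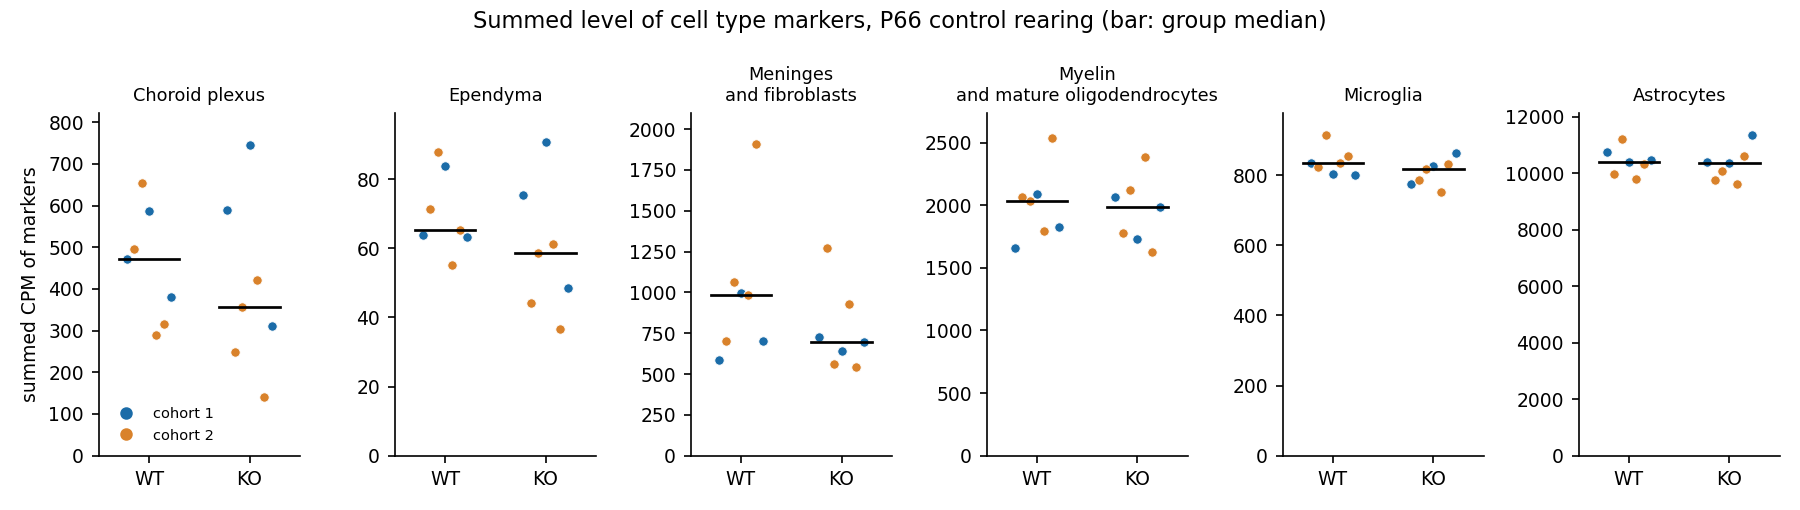
Summed level (CPM, linear axes from 0) of the markers of 6 cell types in each control-reared P66 hippocampus; each point is 1 animal, coloured by cohort, and the bar is the group median. Choroid plexus sums run from 142 to 745 CPM among knockout (KO) animals, wider than the 289 to 654 CPM among wildtype (WT) animals, and 1 WT animal of cohort 2 stands at 1912 CPM in meningeal markers.

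The separated P66 animals allow the same genotype comparison in other mice of that age. There too edgeR called 0 of 7001 genes (0%), with 782 at an unadjusted p under 0.05, while DESeq2 called 2, Hspa5 and Pdia3, and limma-voom none. The comparisons share no animal, but they share 1 fit and its cohort term. Over all 7001 genes the sign was the same in 50.7%, and the Pearson correlation of the differences was 0.034. Over the 269 genes at an unadjusted p under 0.05 in control rearing the sign was the same in 177 (65.8%). Of the 20 genes with the smallest p, 12 had the same sign. At an unadjusted p under 0.05 in both comparisons, 37 genes had the same sign, which is 13.8% of the 269 and 4.73% of the 782, and 8 genes had opposite signs.

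Hspa5, Pdia3, Hsph1, Hspb1, Mlec and Garem2 were among the 37. In separated animals Hspa5 ran from 535 CPM through 731 to 1015 in wildtype and from 411 through 535 to 645 in knockout. Its difference there was -0.53 ± 0.11 (adjusted p = 0.257), and 8 of the 10 wildtype animals exceeded every knockout animal. Pdia3 was -0.25 ± 0.055 (adjusted p = 0.257), Hsph1 -0.12 ± 0.049, Hspb1 -0.43 ± 0.14, Mlec -0.12 ± 0.048 and Garem2 0.24 ± 0.059. The list median of ER chaperones was -0.071 in separated and -0.061 in control-reared animals. The interaction of genotype and rearing was -0.16 ± 0.16 for Hspa5 and -0.020 ± 0.080 for Pdia3, each with a 95% interval that included 0.

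In the separated animals the clock list was centred near 0 and most splicing regulators lay below it. The clock median was -0.014 there, with 6 of 12 members on either side of 0, and Per3 was -0.20 ± 0.076 against 0.21 in control rearing. Its interaction was -0.41 ± 0.11 (adjusted p = 0.794). Ciart was 0.19 ± 0.11 and Dbp 0.17 ± 0.13 in separated animals. Splicing regulators were below 0 in 13 of 16 members, with a median of -0.15, and the interaction of Ccnl2 was -0.27 ± 0.073 (adjusted p = 0.794). Creb3l1 was 0.28 ± 0.099 in separated animals against -0.26 in control rearing, with an interaction of 0.54 ± 0.15 (adjusted p = 0.794). Tas1r3 ran from 0.292 to 1.15 CPM in separated wildtype and from 0.383 to 1.23 CPM in separated knockout animals (0.37 ± 0.22). It had the smallest interaction p (1.501 ± 0.33, adjusted p = 0.600), followed by Acot11 (0.37 ± 0.098). Choroid plexus markers had a median of 0.13 and cholesterol synthesis genes a median of 0.089. The interaction test called 0 of 7001 genes (0%) with edgeR, DESeq2 or limma-voom, and 317 had an unadjusted p under 0.05 by edgeR.

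**Figure D5:**
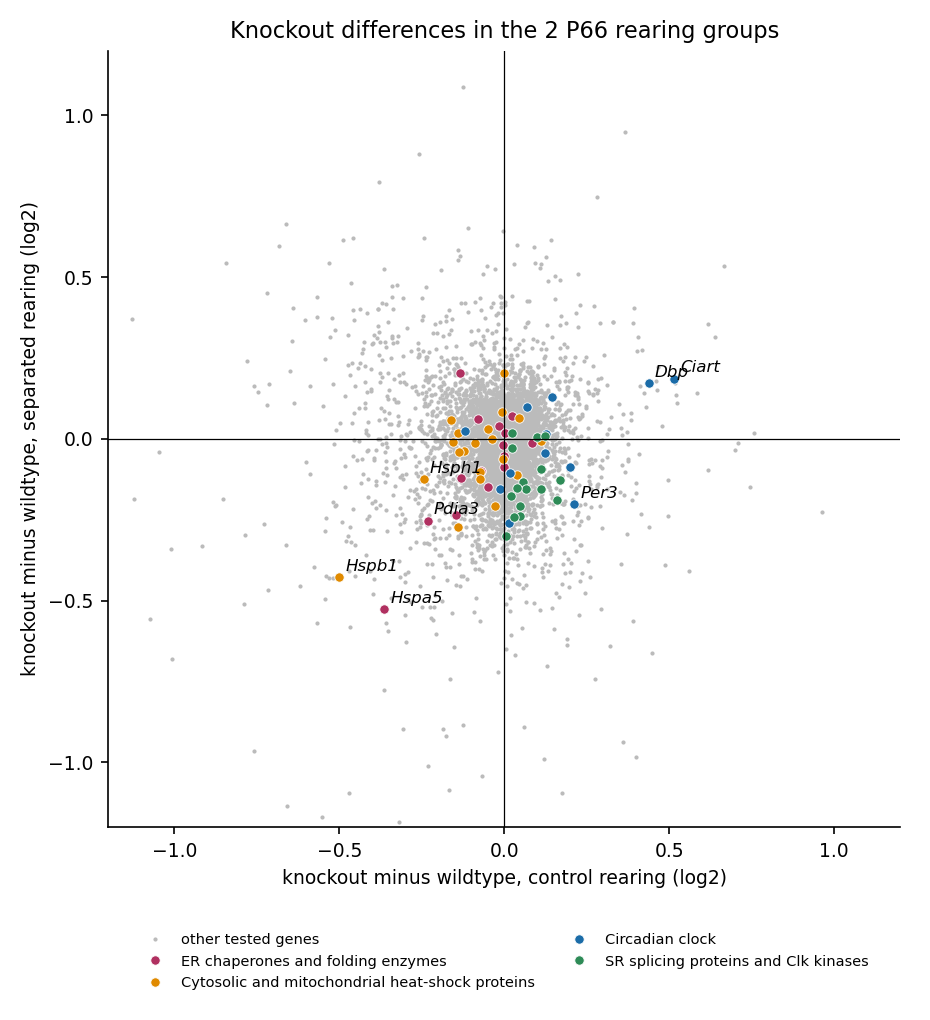
Knockout minus wildtype difference (log2) of the 7001 tested genes in control rearing (horizontal axis) and separated rearing (vertical axis) at P66; 4 lists are coloured and 6 genes lie outside the axes. Hspa5, Pdia3, Hsph1 and Hspb1 sit below 0 on both axes, while splicing genes lie above 0 on the horizontal axis and mostly below it on the vertical axis.

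In the control-reared P22 animals edgeR called 0 of 7036 genes (0%), with 851 at an unadjusted p under 0.05, and DESeq2 and limma-voom called none. Of the 268 genes at an unadjusted p under 0.05 in adults that were also tested at P22, 132 (49.3%) had the same sign. Over all 6964 genes tested at both ages the sign was the same in 3288 (47.2%). Hspa5 was -0.070 ± 0.12, Pdia3 -0.039 ± 0.055, Hsph1 -0.034 ± 0.037 and Hspb1 0.029 ± 0.14. Ciart was 0.16 ± 0.10, Dbp 0.081 ± 0.099 and Tas1r3 0.062 ± 0.24. These genes are named for their adult values, so smaller values in other animals show no difference between the ages. The ER chaperone median was -0.016 and the clock median -0.033, and 14 of 14 choroid plexus markers were above 0 (median 0.65).

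The age difference of the genotype contrast, tested in all 69 libraries, called 0 of 7131 genes (0%) with edgeR, DESeq2 or limma-voom, and 402 had an unadjusted p under 0.05 by edgeR. It shares the adult animals with the comparison above and is no further measure of it. Its smallest p belonged to Bdh2, a dehydrogenase gene, which was -0.38 ± 0.15 at P66 and 0.51 ± 0.15 at P22 (difference -0.89 ± 0.21, adjusted p = 0.617). Hsph1 had an age difference of -0.21 ± 0.062 and Tas1r3 one of -1.18 ± 0.34, with an adjusted p of 0.734 for each.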

How the data were processed

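RNA sequencing counts of hippocampus from 69 male mice were used. The authors deposited raw counts of reads per gene in 1 table. Tools named, per the submitters' processing notes, are limma 3.34.9, edgeR, cutadapt 1.16 and FastQC 0.11.4. The aligner, counter, strand setting and build are not given in the sources. The 9930 complete records held were analysed, and 1 broken record was left out. These records end within chromosome 8, so the results cover only part of the genome. GENCODE M21 held 99.5% of the identifiers, 96.5% of them at the same position, so coordinates are on GRCm38.

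All 31 P66 libraries were fitted together with edgeR 4.0.16 (R 4.3.3): filterByExpr (minimum count 10, total 15), TMM, group and cohort terms, quasi-likelihood tests of contrasts, and adjustment over all tested genes at a threshold of 0.05. P22 and age contrasts were fitted likewise. CPM use TMM-scaled library sizes. The code was tested on simulated data. Alternatives were DESeq2 1.42.0, limma-voom (limma 3.58.1), RLE scaling, other filters and thresholds, covariates, fewer or more libraries, cohorts alone and leaving out each library. Named genes are the 10 with the smallest p in each direction, up to 4 members of each list (all for chaperones, clock and cadherins) and the 3 with the smallest p in each other contrast. The comparison, lists and rules were chosen with earlier results of these data known, so lists are described by counts and medians only. Promoters were found for 16 of 17 genes looked up.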

Additional observations from a re-analysis of the deposited data

Results flagged for a closer look

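In each group of 7, the named genes and 10 marker sums were checked for an animal whose gap to the nearest other animal was large against the range of its group. Chance alone marks about 1 in 20 such groups, and 11 marks were made in 150 checks (65 genes and 10 sums in 2 groups).

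The wildtype animal C2-58 was marked 6 times on the high side. It had 18.0 CPM of Hspb1 (9.12 to 12.2 in the other 6 animals), 23.1 CPM of Bag3 (16.4 to 19.2), 39.1 CPM of Slc6a13 (13.2 to 21.6), 1477 CPM of Ptgds (305 to 691), 10.999 CPM of Mrc1, a macrophage gene (3.04 to 6.34), and 1912 CPM in the sum of meningeal and fibroblast markers (589 to 1064). The wildtype animal C1-6 had 172 CPM of Per3 (130 to 140 in the others) and 60.0 CPM of Lhx6 (40.3 to 45.1).

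Among knockout animals, C1-22 had 688 CPM of Dnaja1 (594 to 607 in the others) and 69.2 CPM of C1qb (82.0 to 88.3). C2-61 had 20.1 CPM of Oxtr (28.9 to 32.5).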

How the results depend on the processing

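The control-reared P66 comparison gave 0 called genes under 10 of 13 alternative settings and in each of 14 fits without 1 library (192 to 349 genes at an unadjusted p under 0.05). The exceptions were DESeq2 (4 genes), all 69 libraries in 1 fit (4 genes: Ciart, Hsph1, Lcn2 and Tas1r3) and cohort 2 alone. Cohort 2 alone gave 11 genes, 5 higher and 6 lower, of which Bcl3, Hist2h3c2, Mettl11b and Zfp46 are named here after their values were seen; cohort 1 alone gave 0, with 134 at an unadjusted p under 0.05. In separated animals DESeq2 and the clock covariate each called 2 genes (Hspa5 and Pdia3), cohort 2 alone called 23, and fits without 1 library called 0 to 1 (Hspa5 without the separated wildtype animal C1-55). The interaction, P22 and age contrasts had 0 calls in each setting run. The cause was not tested.

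Of 65 genes recomputed, 48 kept their sign in each setting. In cohort 1 alone the sign reversed for Eef2k (-0.019), Dnaja1 (0.015), Cry2 (-0.037), Lcn2 (1.93), Cdh7 (0.12), Cdh20 (0.034), Pcdh10 (0.060), Camkk2 (-0.035), Gabrd (-0.055), Grm3 (0.059), Mrc1 (0.12) and Kl (0.14), and in cohort 2 alone for Lhx6 (0.0055). With the clock covariate it reversed for Dbp (-0.028), Pdia4 (0.022), Hspd1 (0.023), Dnaja1 (0.021) and Arntl (0.047); Dbp and Arntl are part of that covariate.

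No paired analysis was possible because animal numbers run separately within each cohort and rearing group, so the genotypes share no number. Genes with few reads, such as Tas1r3 and Gimap9, are limited by depth.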
